A study of Mus musculus with 2 samples.

Results

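The nuclear-encoded genes of the respiratory chain and ATP synthase were examined in RNA of hematopoietic stem cells (HSC) of the mouse, which give rise to all blood lineages. Members were the protein-coding genes whose GENCODE M21 symbols begin with Ndufa, Ndufb, Ndufc, Ndufs or Ndufv and a digit, are Sdha to Sdhd, or start with Uqcr, Cox4 to Cox8 or Atp5. This rule took 84 of 69691 features in the gene tables, among 21474 protein-coding genes. Complex I had 37 members, complex II 4, complex III 8, complex IV 18 and ATP synthase 17. The study held 1 group of 2 libraries, both from HSC of male C57BL/6J mice aged 5 to 6 weeks, with no treatment or altered allele named in the labels. Each library was made from 100 ng of total RNA depleted of ribosomal RNA. The labels number the libraries as biological replicates, with separate biosample entries but the same donor entry, and do not say whether the cells came from different animals, so the spread between them may be partly technical. The linked protocol for isolating the cells was not used here. With 1 group there was no condition to compare. The comparisons are therefore between complexes, between alternative forms of a subunit, and between the replicates, with no p-value, since an exact permutation over 2 libraries cannot go below 0.5.

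As background, complexes I and II pass electrons from NADH and succinate to ubiquinone, complex III passes them to cytochrome c, and complex IV passes them to oxygen. Complexes I, III and IV pump protons, and ATP synthase uses the gradient to make ATP. Mitochondrial DNA encodes a few core subunits of all complexes except complex II, and nuclear genes, most of them described here, encode the others. Hematopoietic stem cells at rest are known to draw much of their ATP from glycolysis and to keep oxidative phosphorylation low.

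Replicate 1 held 27901074 expected counts and replicate 2 held 48490188, of which the members took 143061 and 270054. Levels are in TPM, counts per unit of effective transcript length scaled to the same total in each library. Protein-coding genes took 16.3% of TPM in replicate 1 and 20.3% in replicate 2, so their median difference between the libraries was 0.29 on the log2 scale in TPM, against 0.05 in CPM, counts scaled to library total with no division by length. Marker genes of HSC summed to 360 TPM in replicate 1 and 394 in replicate 2, and all 8 had at least 1 TPM in both. Neutrophil markers summed to 3087 and 1164 TPM with all 8 at 1 TPM or more, monocyte markers to 365 and 167, and erythroid markers to 117 and 236 with Epor at 0 in replicate 1 and Alas2 at 0 in replicate 2. Of these, 5 neutrophil and 4 monocyte markers differed over 2-fold toward replicate 1 and 4 erythroid markers toward replicate 2, by the rule given below for members. That rule called 2.07% of protein-coding genes toward replicate 1 and 6.54% toward replicate 2. Of the 4 stromal and endothelial markers, Pecam1 had 8.13 and 9.46 TPM, Cxcl12 had 0.360 and 0.280, and Col1a1 and Cdh5 were at 0 TPM, while of the muscle markers Acta1 and Myh6 were at 0 TPM and Ckm had 0 and 6 counts. In bulk RNA fewer cells of a type and less RNA per cell cannot be told apart.

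Some members share protein residues or nucleotide letters with other genes, and shared letters bear on how reads can be divided between them. Atp5g1, Atp5g2 and Atp5g3 encode subunit c, which forms the proton-carrying ring of ATP synthase. In the GENCODE M21 transcripts their last 75 codons gave the same residues in all 3 genes, while 57 of 225 nucleotide positions differed. Atp5g1 and Atp5g2 differed at 34 positions, Atp5g1 and Atp5g3 at 45, and Atp5g2 and Atp5g3 at 48. Codons 44 to 73 of these 75 are shown because they hold 26 of the differing positions, in capitals. The genes lie on the minus strand at chr11:96068852-96075670, chr15:102662864-102672352 and chr2:73908447-73911326 (GRCm38), and the coding stretches are:
Atp5g1: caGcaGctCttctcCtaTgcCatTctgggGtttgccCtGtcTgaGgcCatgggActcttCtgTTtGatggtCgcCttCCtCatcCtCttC
Atp5g2: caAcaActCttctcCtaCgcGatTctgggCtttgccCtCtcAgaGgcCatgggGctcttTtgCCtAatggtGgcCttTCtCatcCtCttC
Atp5g3: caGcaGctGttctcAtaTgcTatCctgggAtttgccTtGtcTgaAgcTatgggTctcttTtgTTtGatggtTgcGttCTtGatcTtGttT

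Ndufb4, a complex I subunit, and Atp5l, subunit g of ATP synthase, each have a processed pseudogene with the same letters. The pseudogene Ndufb4c is 390 nucleotides long and is identical over its whole length to the coding sequence of Ndufb4. The pseudogene Gm10221 is 309 nucleotides long and is identical over its whole length to part of the 312-nucleotide coding sequence of Atp5l. The first 90 nucleotides of each pseudogene are shown because they cannot be told from the subunit's own message. They lie at chr15:73809807-73809896 and chr5:24581773-24581862 (GRCm38, minus strand both):
Ndufb4c: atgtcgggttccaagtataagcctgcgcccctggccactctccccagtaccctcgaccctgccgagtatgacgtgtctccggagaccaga
Gm10221: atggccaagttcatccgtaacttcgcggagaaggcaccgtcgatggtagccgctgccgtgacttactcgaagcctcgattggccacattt

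Promoters were read for the 66 members with an entry in RefSeq promoter sequences for GRCm38.p6, which run from 250 bases before to 50 bases after a gene's start. Nuclear respiratory factor 1 (NRF1), the ETS-family factor GABP and YY1 are known to bind promoters of many of these genes. The letters GCATGCGC, the core of the NRF1 site, were found on either strand in 15.2% of the 66 members (10 genes) and in 2.71% of all 32851 promoters. The ETS letters CCGGAAG were in 24.2% of members (16) and 8.86% of all promoters, and the YY1 letters AAGATGGCG were in 10.6% (7) and 1.40%. For comparison, the TATA box letters TATAAA were in 10.6% of members (7) and 13.6% of all promoters, the CCAAT box letters CCAAT in 43.9% (29) and 37.4%, and the cyclic AMP response letters TGACGTCA in 6.06% (4) and 1.79%. On the other strand GCATGCGC reads GCGCATGC, so matches on both strands can overlap, and each promoter was counted once. Per promoter, the NRF1, ETS and YY1 letters were in 14.1%, 22.5% and 9.86% of the members' 71 promoters. The TATA, CCAAT and cyclic AMP response letters were in 11.3%, 42.3% and 5.63% of them. Base composition was not matched, members with several promoters had more chances to match, and a match is a description of the letters only. A stretch around the NRF1 letters is shown for a member of each of complexes I, II and IV and of ATP synthase, with the matching letters in capitals. These begin 60, 54, 162 and 42 bases before the start of the RefSeq promoter entry, which can differ from the gene start in GENCODE M21 (that of Atp5g2 lies inside the GENCODE gene). They lie at chr17:56717677-56717736 (plus strand), chr4:140961192-140961249 (plus), chr5:115349086-115349145 (minus) and chr15:102671055-102671114 (minus):
Ndufa11: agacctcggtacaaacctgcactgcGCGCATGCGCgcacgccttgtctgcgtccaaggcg
Sdhb: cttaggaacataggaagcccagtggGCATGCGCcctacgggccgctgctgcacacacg
Cox6a1: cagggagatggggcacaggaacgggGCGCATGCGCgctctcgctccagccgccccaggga
Atp5g2: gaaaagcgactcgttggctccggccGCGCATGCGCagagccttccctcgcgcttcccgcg

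Most members reached 1 TPM in both libraries, and 7 of the 8 that did not are alternative forms with a relative among the members. This level was found for 76 of 84 members, or 90.5%, against 44.0% of protein-coding genes. In complexes II and III all 4 and all 8 members passed, in complex I 36 of 37, in complex IV 12 of 18 and in ATP synthase 16 of 17. No count fell on 5 members, Ndufa4l2, Cox7a1, Cox7b2, Cox8b and Cox8c. The remaining 3 were Cox4i2, Cox6a2 and Atp5l. The members together took 1.54% of protein-coding TPM in replicate 1 and 1.75% in replicate 2 (mean 1.64% ± 0.148, SD, n = 2). As a share of counts, with no division by length, this mean was 0.636%. These genes are short, with a median effective length of 539 nucleotides in replicate 1 and 483 in replicate 2 over members with 10 counts, against 2300 and 2245 for protein-coding genes.

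The median member lay above the median protein-coding gene. Among genes that reached 10 counts in each library, the median member had 21.9 and 27.3 TPM in replicates 1 and 2, and the median protein-coding gene 4.05 and 4.80. Mitochondrial ribosomal proteins, the other large group of nuclear genes for the same organelle, had medians of 7.71 and 9.52 TPM, and cytosolic ribosomal proteins 330 and 369. The 5 highest members took 22.1% of all member TPM in replicate 1 and 34.6% in replicate 2, and Atp5b alone took 8.20% and 16.4%. Across the 77 members with 10 counts, level and effective length had a Spearman correlation of -0.11, as a description over genes that share the same 2 libraries. The members lie on 19 chromosomes, with Ndufa1, Ndufb11 and Cox7b on X.

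**Figure D1:**
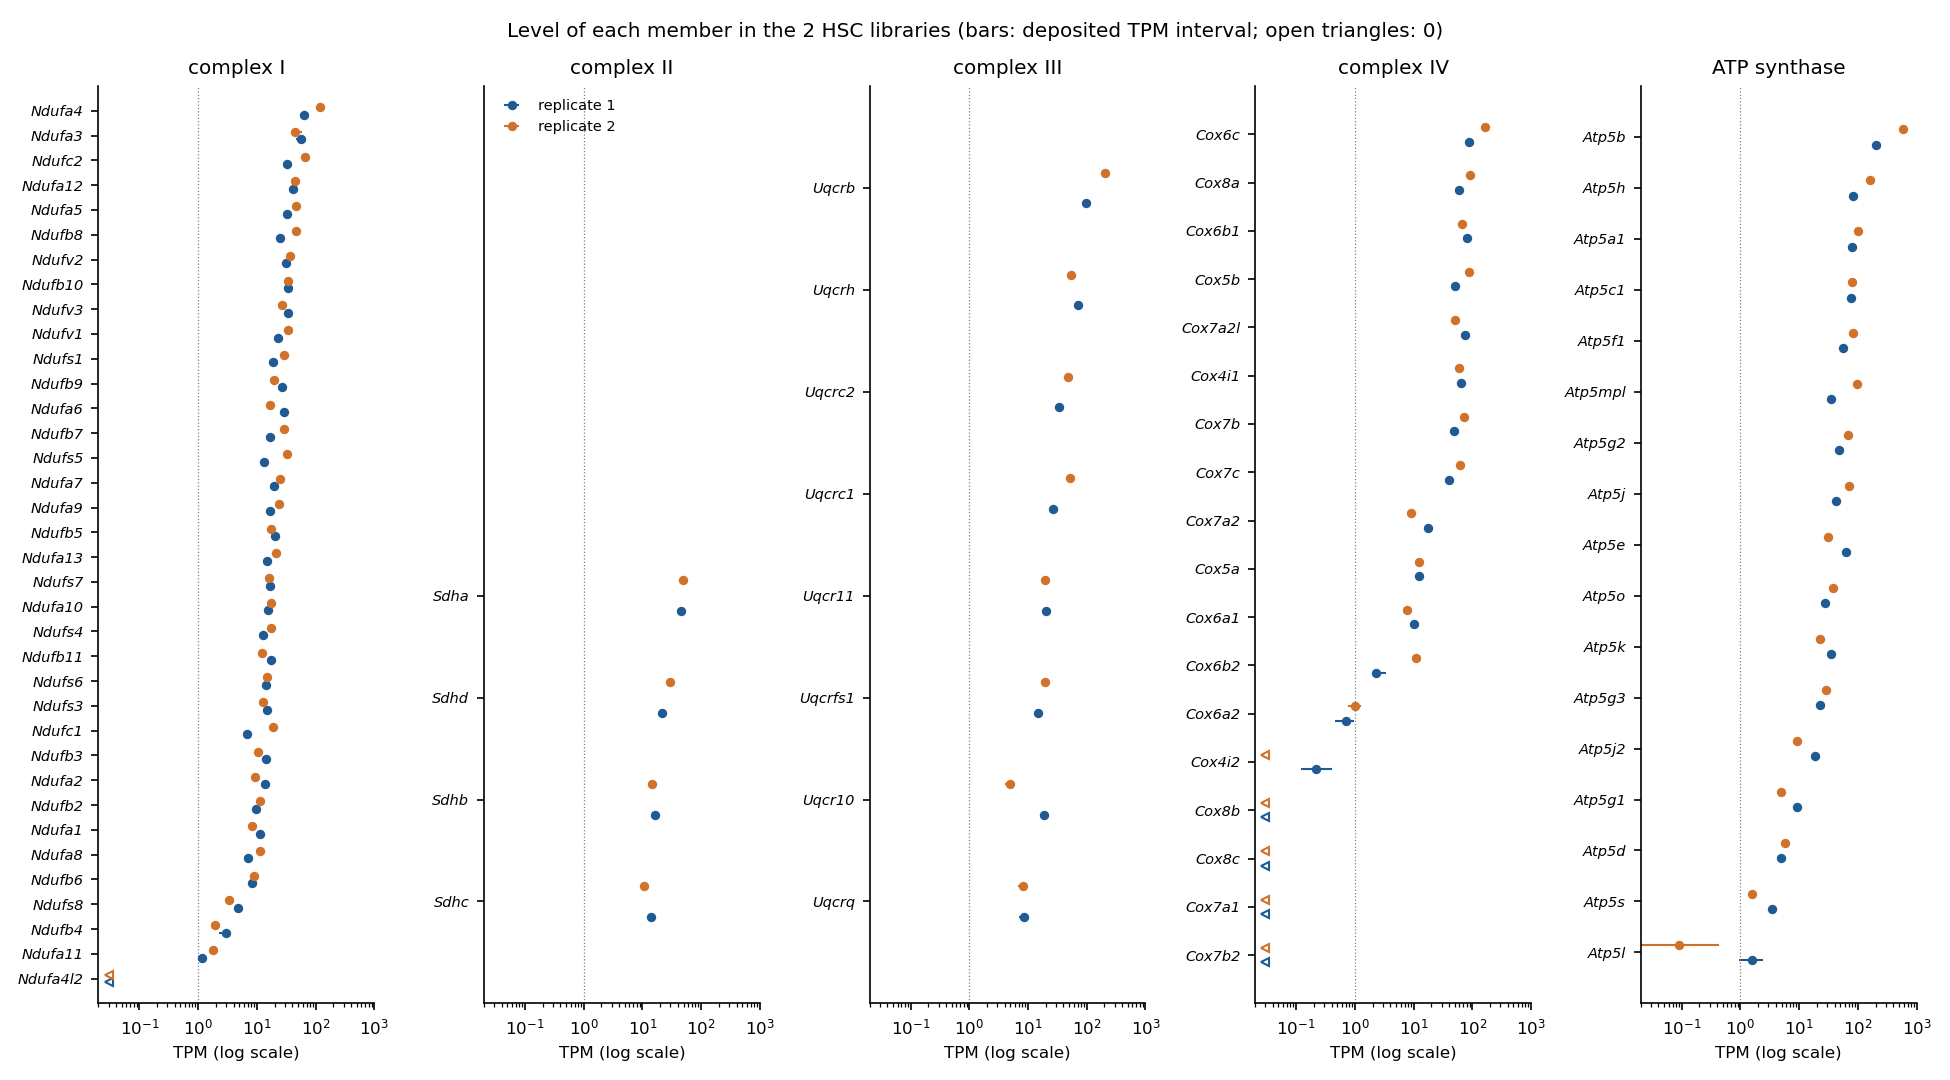
Deposited TPM of the members on a log scale, with 1 member left out of the drawing, 1 panel per complex, with replicate 1 in blue, replicate 2 in orange, bars for the deposited interval, open triangles for 0 and a dotted line at 1 TPM. Most members lie between 5 and 100 TPM, Atp5b stands highest at 206 and 581, and the members at 0 in both libraries are 4 in complex IV and 1 in complex I.

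Complex IV and ATP synthase stood above the members' median and complex I below it. The median member of complex IV had 47.9 TPM in replicate 1 and 59.6 in replicate 2, of ATP synthase 39.0 and 52.0, of complex III 23.4 and 33.4, of complex II 19.3 and 22.1, and of complex I 16.6 and 19.1. The order of the 5 medians was the same in both libraries. Relative to the median of all members in the same library, on the log2 scale of TPM + 0.1, complex IV lay at 1.12 ± 0.00, ATP synthase at 0.84 ± 0.03, complex III at 0.12 ± 0.05, complex II at -0.30 ± 0.14 and complex I at -0.46 ± 0.08. The gaps between complex IV and ATP synthase and between ATP synthase and complex III exceeded these SDs, and complexes I and II differed by about their spread. Without Atp5s, which is not a structural subunit, ATP synthase lay at 1.11. Its distance from the complex IV value of 1.12 thus depended on that member. The complex IV value covers the 13 members that reached 10 counts in each library. With all 18 members counted it was -0.63. The order depended on division by length, since without it complex II lay at 0.88, complex III at 0.63, complex IV at 0.55, ATP synthase at 0.35 and complex I at -0.44.

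Complex I, the largest complex, takes electrons from NADH. Its highest member by symbol was Ndufa4 at 62.4 TPM in replicate 1 and 118 in replicate 2 (90.3 ± 39.5), a gene named as a complex I subunit whose product is now known to associate with complex IV. This rank depended on division by length. By counts Ndufa4 (1617 and 3828) stood below Ndufs1 (3397 and 6660) and Ndufv2 (2437 and 5887), among others. Ndufa3, a small membrane subunit, stood at 56.3 and 44.1 TPM. Of the 56.3 TPM of Ndufa3 in replicate 1, 16.2 came from 10 counts on a 136-nucleotide transcript. Ndufc2 stood at 32.8 and 64.8 TPM, Ndufa12 at 41.6 and 43.9, and Ndufb10 at 33.5 in both. The lowest members with counts were Ndufb4 at 2.95 and 1.94 TPM and Ndufa11 at 1.14 and 1.82. Their intervals lay below those of all other complex I members with counts, in both libraries. For Ndufb4 this rank is uncertain, since its pseudogene Ndufb4c held 84.2% and 90.2% of the counts of the pair.

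The nuclear core subunits of complex I, which carry the flavin, the iron-sulfur clusters and the quinone site, were spread widely. The flavin subunit Ndufv1 stood at 22.7 and 33.5 TPM, Ndufv2 at 30.8 and 37.1, Ndufs1 at 18.6 and 28.9, Ndufs7 at 16.4 and 16.3, Ndufs3 at 15.0 and 12.7, and Ndufs8 at 4.72 and 3.40. By gene level Ndufs8 was the lowest core subunit in both libraries, with intervals of 4.15 to 5.17 and 3.01 to 3.75. On protein-coding transcripts only, Ndufs7 lay below it in replicate 2, at 1.83 TPM against 3.40. The core median exceeded that of the supernumerary subunits, which surround the core, by 0.18 in replicate 1 and 0.64 in replicate 2 on the log2 scale (0.41 ± 0.33). This difference is of the size of its spread, and on protein-coding transcripts only it turned to -0.29.

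Complex II, succinate dehydrogenase, also serves the citric acid cycle and is wholly nuclear-encoded. The flavoprotein Sdha stood at 45.8 and 49.6 TPM, above the membrane anchor Sdhd at 21.9 and 29.8, the iron-sulfur subunit Sdhb at 16.6 and 14.3, and the membrane anchor Sdhc at 14.1 and 10.7. In both libraries the 4 genes kept this order in gene TPM with intervals that did not overlap. By counts, with no division by length, Sdhc (1747 and 2893) lay above Sdhb (1351 and 1622). On protein-coding transcripts only, Sdhc lay above Sdhb in replicate 2, at 10.7 TPM against 9.68.

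Complex III, the cytochrome bc1 complex, was led by Uqcrb, the ubiquinone-binding small subunit, at 97.5 TPM in replicate 1 and 204 in replicate 2 (151 ± 75.2). The hinge protein Uqcrh stood at 72.0 and 53.0, the large structural subunits Uqcrc2 at 33.4 and 47.3 and Uqcrc1 at 26.1 and 52.2, and the Rieske iron-sulfur protein Uqcrfs1 at 14.8 and 19.5. Uqcr11 stood at 20.6 and 19.3. By the mean of both libraries the lowest were the small subunits Uqcr10 at 18.6 and 4.88 and Uqcrq at 8.52 and 8.06, although Uqcrfs1 lay below Uqcr10 in replicate 1. The intervals of Uqcrb lay above those of the other 7 members in both libraries. By counts Uqcrc2 stood above Uqcrb in replicate 1, at 3066 against 2892.

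Complex IV, cytochrome c oxidase, has catalytic subunits from mitochondrial DNA and a set of nuclear subunits, several of which exist in tissue-specific forms. Cox6c stood highest at 87.3 and 166 TPM (127 ± 55.9), followed by Cox8a at 58.3 and 92.9, Cox6b1 at 82.6 and 67.8 and Cox5b at 51.2 and 89.3. By counts Cox6c (2737 and 6138) stood below Cox5b (2811 and 7140), among others. The general form of subunit IV, Cox4i1, stood at 64.0 and 59.6 TPM, and Cox7c, a small membrane subunit, at 40.8 and 60.5. Cox5a stood lower at 12.3 and 12.2 TPM, below Cox5b in both libraries with intervals apart. Both encode subunits that face the matrix.

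In complex IV and for Ndufa4, the form known from most tissues stood above the form known from heart, muscle, lung or testis or from hypoxia. Of 12 pairs of forms in 8 families, 12 had the same order in both libraries with deposited intervals that did not overlap in either. Cox4i1 (64.0 and 59.6 TPM) exceeded the lung and hypoxia form Cox4i2 (10 and 0 counts) 291-fold in replicate 1 and at least 1254-fold in replicate 2, where the floor is 3 counts per library. Cox6a1 (10.3 and 7.81 TPM) exceeded the heart and muscle form Cox6a2 (0.700 and 1.00 TPM) 14.7-fold and 7.81-fold. Cox7b exceeded Cox7b2 at least 483-fold and 923-fold. Cox8a exceeded the heart and muscle form Cox8b at least 289-fold and 512-fold and the testis form Cox8c at least 477-fold and 941-fold.

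In the Cox7a and Cox6b families more than 1 form had clear counts. Cox7a2l, a relative of subunit VIIa that is known to join complexes III and IV into supercomplexes, stood at 74.0 and 49.7 TPM and Cox7a2, the liver form, at 17.8 and 9.05. Cox7a2 exceeded the heart and muscle form Cox7a1, which had no count, at least 88.9-fold and 50.5-fold. Cox6b2, known as the testis form of subunit VIb, had 2.28 TPM from 49 counts in replicate 1 and 11 TPM from 314 counts in replicate 2. Cox6b1 exceeded it 36.2-fold in replicate 1 and 6.15-fold in replicate 2, a log2 ratio of 3.86 ± 1.77. The other testis forms, Cox7b2 and Cox8c, had no count in either library. Ndufa4 exceeded its hypoxia-induced relative Ndufa4l2 at least 1379-fold and 3660-fold.

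**Figure D2:**
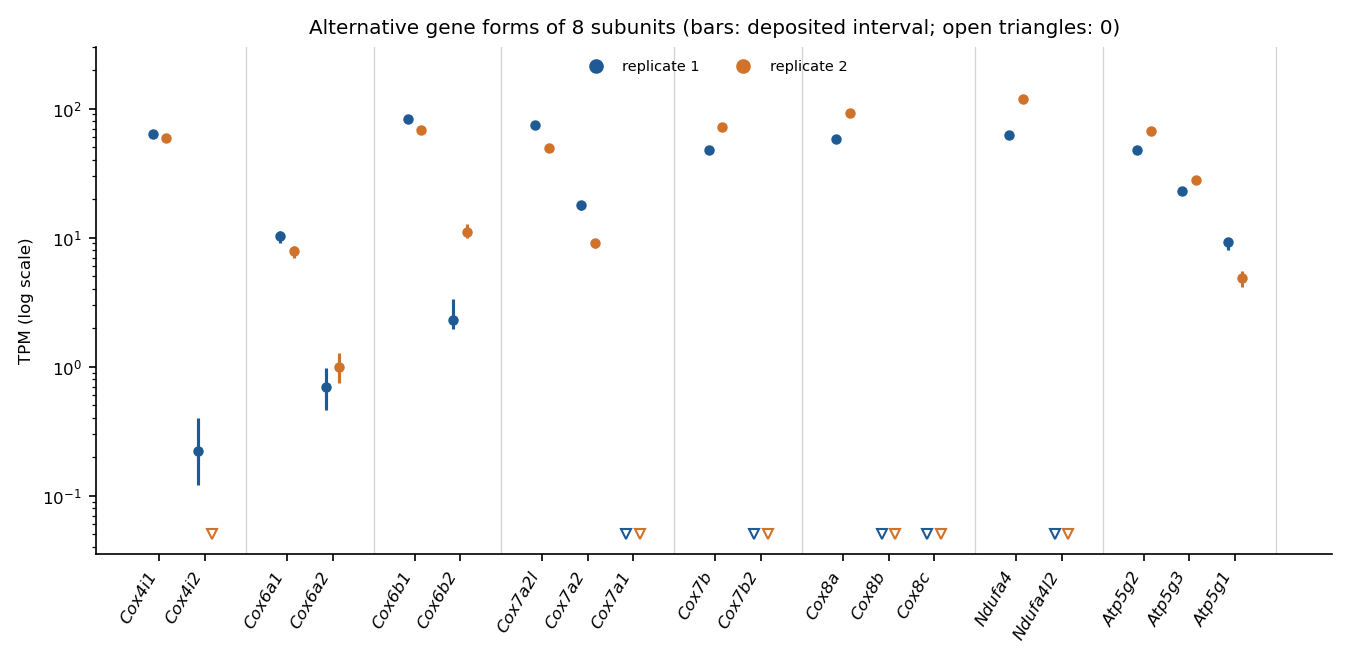
Deposited TPM on a log scale for the alternative gene forms of 8 subunits, with replicate 1 in blue, replicate 2 in orange, bars for the deposited interval and open triangles for 0. The form on the left of each block stands highest in both libraries, 5 forms are at 0 in both, and Cox6b2 is at 2.28 and 11 TPM.

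ATP synthase held the member with the highest gene level, a rank that was lost on protein-coding transcripts only. Atp5b, the catalytic beta subunit (chromosome 10, 128083273 to 128090391, GRCm38), reached 206 TPM in replicate 1 and 581 in replicate 2 (393 ± 265), and its intervals of 197 to 209 and 565 to 586 lay above those of all other members in each library. On protein-coding transcripts it had 66 and 104 TPM, below Uqcrb (96.7 and 203), Cox6c (85.6 and 165) and Atp5h (71.2 and 153) in both libraries. The alpha subunit Atp5a1, present in the same number of copies as beta, stood at 80.0 and 102 TPM, and by counts the pair stood at 13459 and 35014 for Atp5b and 15355 and 28841 for Atp5a1. The gamma shaft Atp5c1 stood at 75.1 and 78.7 TPM, epsilon (Atp5e) at 61.6 and 31.2, and delta (Atp5d) at 4.83 and 5.71. Of the stalk and membrane subunits, Atp5h, subunit d, stood at 81.6 and 158, Atp5f1, subunit b, at 56.3 and 83.0, Atp5j, coupling factor 6, at 43.0 and 70.5, and Atp5o at 27.3 and 37.1. The small proteolipid gene Atp5mpl stood at 35 and 98.2 TPM. The lowest were Atp5s, which shares the symbol but is not a structural subunit, at 3.45 and 1.57, and Atp5l at 1.59 and 0.0900. For Atp5l this rank is uncertain, since its pseudogene Gm10221 held 95.0% and 99.8% of the counts of the pair.

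The 3 genes of subunit c, whose coding stretches are printed above, stood in a fixed order. Atp5g2 had 47.5 and 66.8 TPM, Atp5g3 22.9 and 28.1, and Atp5g1 9.20 and 4.85. Atp5g2 exceeded Atp5g1 5.17-fold and 13.8-fold, and Atp5g3 exceeded Atp5g1 2.49-fold and 5.79-fold. The log2 ratio of Atp5g3 over Atp5g2 was -1.05 and -1.25 (-1.15 ± 0.14), larger than its spread.

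Between the replicates, the members as a group moved with other genes. Over the 76 members with a mean of at least 1 TPM, the median log2 difference, replicate 2 minus replicate 1, was 0.22, against 0.29 for protein-coding genes, or -0.07 relative to them. In CPM it was -0.04 against 0.05. The SD over members was 0.71, and 0.60 over protein-coding genes. A gene was called apart when it differed over 2-fold on the log2 (TPM + 0.1) scale with deposited intervals that did not overlap. By this rule 6 members (7.89%) were higher in replicate 2, against 6.54% of 9900 protein-coding genes, and 2 (2.63%) were higher in replicate 1, against 2.07%, so both shares were near the background.

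The split depended on the fold limit and on the scaling. Still in TPM, a 1.5-fold limit called 9 of 76 members higher in replicate 1, against 5.43% of protein-coding genes. It called 20 higher in replicate 2, against 23.7%. With TPM rescaled over protein-coding genes, 7 were higher in replicate 1 against 4.52%, and 4 in replicate 2 against 3.19%. With counts scaled by TMM from edgeR and not divided by length, 1 member (1.32%) was higher in replicate 2 against a background of 2.04%, and 9 (11.8%) were higher in replicate 1 against 3.13%. Only Cox6b2, Uqcr10 and Atp5s were called both by the main rule in TPM and with TMM. The 9 by TMM were Uqcr10, Atp5s, Atp5e, Cox7a2, Atp5k, Ndufa6, Atp5j2, Ndufa2 and Ndufa1. They stood between 2.04-fold (Ndufa1) and 5.69-fold (Uqcr10) higher in replicate 1. Relative to the protein-coding median, 36 of 76 members were higher in replicate 2 in TPM and 33 of 76 in CPM.

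Uqcr10 (chromosome 11, 4701973 to 4704342) showed the largest fall among members of at least 1 TPM. It had 401 counts and 18.6 TPM in replicate 1 and 123 counts and 4.88 TPM in replicate 2, with intervals of 16.6 to 20.2 and 4.07 to 5.82 that did not overlap. The log2 difference was -1.91 in TPM and -2.46 in CPM. Of the 8 complex III members, 4 were higher in replicate 1 in TPM and 4 in replicate 2. The others higher in replicate 1 were Uqcrh (-0.44), Uqcr11 (-0.09) and Uqcrq (-0.08), and Uqcrb at 1.06 differed most in the other direction. Atp5s (3.45 and 1.57 TPM) had -1.09 in TPM and -1.39 in CPM, and Atp5j2, subunit f, followed at -1.0 in TPM without being called, with 18.5 and 9.22 TPM.

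Cox6b2 (chromosome 7, 4751792 to 4753094) showed the largest rise, with a log2 difference of 2.22 in TPM and 1.82 in CPM. Its intervals of 1.97 to 3.34 and 9.88 to 12.7 TPM did not overlap. In replicate 1 its counts fell on 2 transcripts, led by Cox6b2-209 with 40.1, and in replicate 2 this transcript led again with 141. Atp5b and Atp5mpl had log2 differences of 1.5 and 1.49 in TPM and 0.58 and 0.85 in CPM. Ndufs5, an accessory subunit of complex I, stood at 13.3 and 32.0 TPM (1.26 in TPM, 0.69 in CPM). Ndufc1, a small accessory subunit, stood at 6.73 and 18.5 TPM, a log2 difference of 1.44 in TPM but 0.25 in CPM, and its effective length was 480 nucleotides in replicate 1 and 241 in replicate 2. Neutrophil, monocyte and erythroid marker sums moved between the same 2 libraries, as given above, and so did depth and the size range of the fragments, 172 to 1452 nucleotides in replicate 1 and 232 to 1000 in replicate 2. Their part in these differences was not tested.

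**Figure D3:**
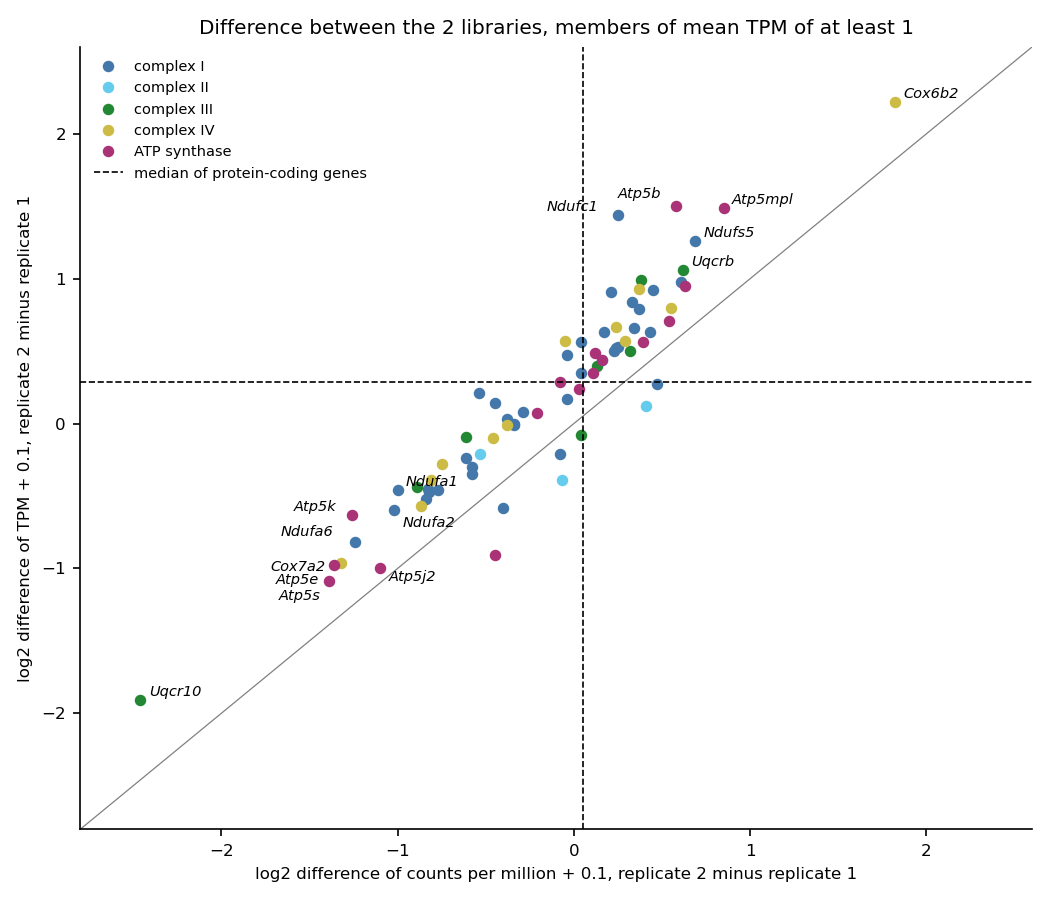
Log2 difference of each of the 76 members with a mean of at least 1 TPM, replicate 2 minus replicate 1, in CPM on the x axis and in TPM on the y axis, coloured by complex, with the medians of protein-coding genes as dashed lines (0.05 and 0.29) and equality as a grey line. Most members lie above the grey line, Cox6b2 and Uqcr10 stand apart on both axes, and Ndufc1 and Atp5b stand apart mainly in TPM.

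The gene levels summed transcripts of different classes, and for some members most of the TPM was on transcripts without a protein product. Classes counted as noncoding were processed transcripts, retained introns and transcripts subject to nonsense-mediated decay in GENCODE M21. They held 16.6% of member TPM in replicate 1 and 21.7% in replicate 2, against 13.8% and 13.4% for protein-coding genes, and 10.3% and 10.8% of member counts. In 33 of the 76 members with a mean of at least 1 TPM no such transcript had a value above 0, and in 12 they held over 20% in both libraries. Transcripts of these classes led in both libraries for 4 of 77 members with 10 counts, among them Atp5b, Cox7c and Ndufa5. No share over all protein-coding genes stands beside these counts of members.

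Atp5b was the largest case. Its full-length coding transcript Atp5b-201 had 9819 and 22611 counts, which gave 66 and 104 TPM. The processed transcript Atp5b-206, of 478 nucleotides, had 2230 and 8084 counts, which gave 90.2 and 264 TPM. Atp5b-207, of 343 nucleotides, had 479 and 2834 counts, which gave 36.0 and 197 TPM. On coding transcripts only, Atp5b lay below Atp5a1 in replicate 1 and above it in replicate 2, since Atp5a1 then had 77.3 and 99.1 TPM. Ndufa5 had 33.2 and 46.0 TPM, of which 87.2% and 85.2% lay on noncoding classes, led by Ndufa5-204, and its coding level was 4.27 and 6.81. Cox7c had a coding level of 17.4 and 23.4 TPM, with 57.2% and 61.3% on noncoding classes.

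In 8 of 77 members the leading transcript differed between the libraries, namely Atp5f1, Atp5j, Ndufc1, Ndufs7, Ndufv1, Ndufv2, Sdhc and Uqcrc1. The share of all protein-coding genes with such a switch was not determined, so whether this is usual for these libraries is not known. For Ndufs7 the coding transcript Ndufs7-201 led in replicate 1 with 9.28 TPM and stood at 1.74 in replicate 2, where the processed transcript Ndufs7-206 led with 14.5, while the gene level was 16.4 and 16.3. For Ndufc1 the processed transcript Ndufc1-202 led in replicate 1 with 138 counts and had none in replicate 2, where the 315-nucleotide coding transcript Ndufc1-204 led with 175 counts and had none in replicate 1. For Ndufv2 the lead passed from Ndufv2-201 (20.9 and 4.46 TPM) to the longer Ndufv2-203 (9.44 and 32.6), both coding. The ranges of fragment size given above also differed between the libraries, and their part in these switches was not tested.

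**Figure D4:**
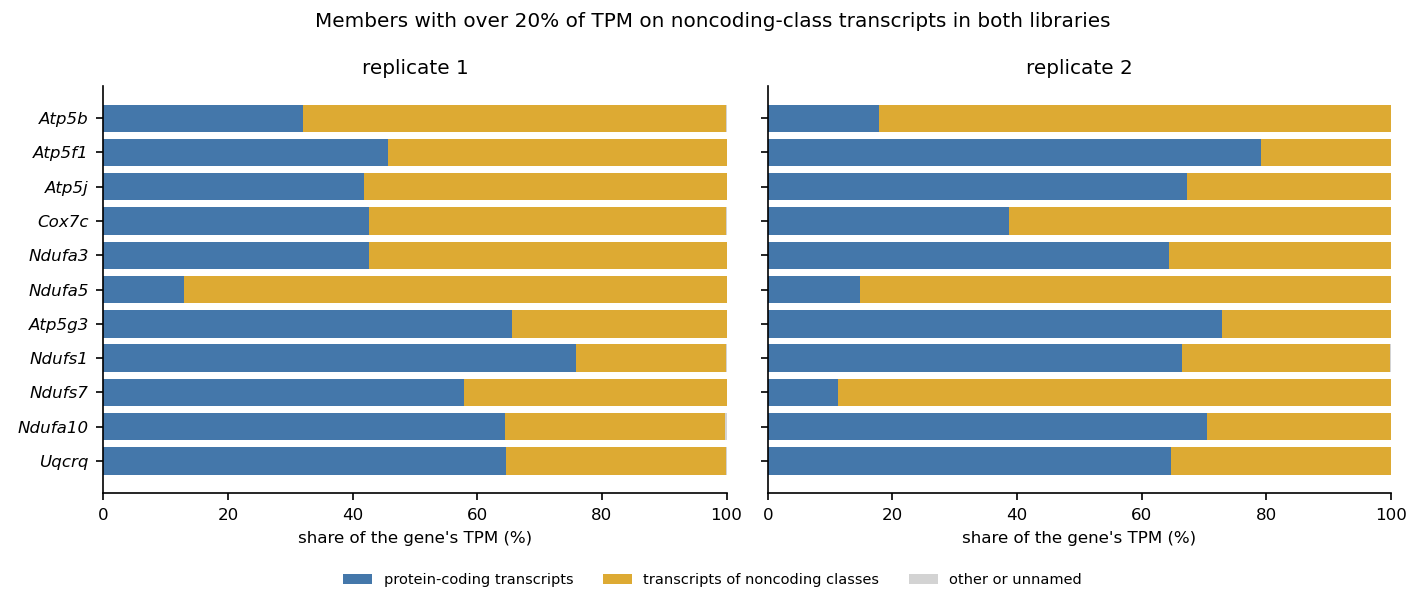
Share of each gene's TPM on protein-coding transcripts (blue) and on transcripts of noncoding classes (yellow) in replicate 1 (left) and replicate 2 (right), for members with over 20% on noncoding classes in both libraries, with 1 of the 12 left out of the drawing. Ndufa5 has the largest noncoding share in replicate 1 (87.2%) and Ndufs7 in replicate 2 (88.8%, from 42.3% in replicate 1).

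Processed pseudogenes with at least 98% identity over at least 150 nucleotides were found for 13 members, 19 copies in all, and 71 members had none. For 11 of the 13 members the copies took a minority of the counts, and for Ndufb4 and Atp5l they took most. Ndufb4 had 139 and 183 counts, while its pseudogene Ndufb4c had 743 and 1691, or 84.2% and 90.2% of the pair. Atp5l had 43.9 and 3.05 counts, while Gm10221 had 837 and 1477, or 95.0% and 99.8%. The pseudogene sequences are those printed above, and they match the coding sequences letter for letter. The low levels of both members are therefore uncertain. With the TPM of the copies added, Ndufb4 rose from 2.95 and 1.94 to 46.1 and 87.4. Atp5l rose from 1.59 and 0.0900 to 43.6 and 62.5. In these sums a copy's counts are divided by its own length, from 390 and 309 nucleotides. The main coding transcripts of Ndufb4 and Atp5l have 971 and 511. The sums therefore overstate the level of each member if the reads were its own. Next came Ndufa12, whose copy Gm15920 held 14.8% and 18.2% of counts, Atp5h with 8.97% and 3.35%, and Cox7c, whose copy Gm12338 had 78.8 and 109 counts but 29.9 and 64.6 TPM. From which locus these reads came was not tested.

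**Figure D5:**
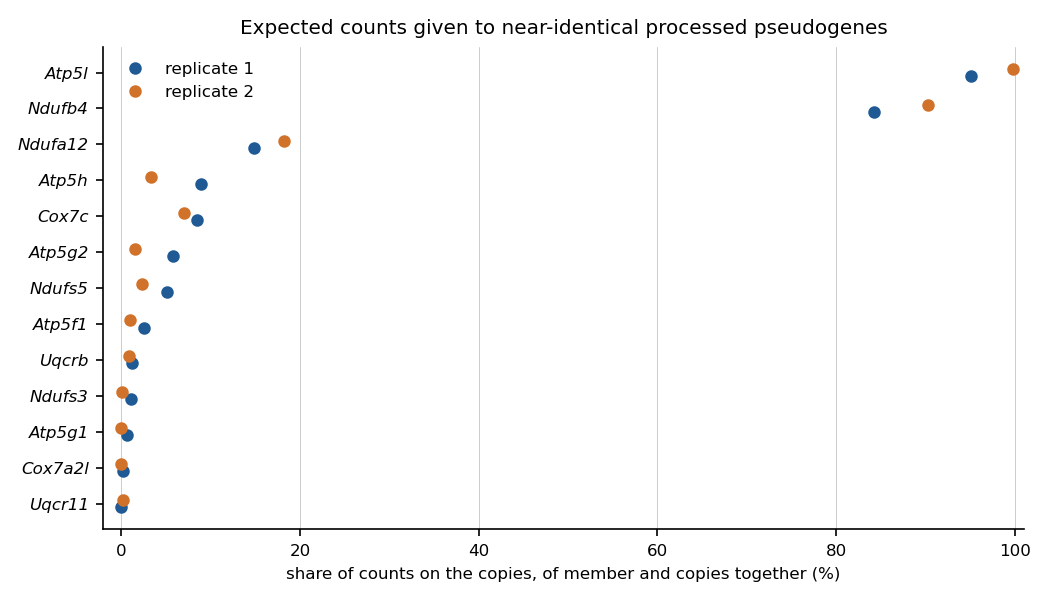
Share of expected counts on near-identical processed pseudogenes, of the counts of member and copies together, for the 13 members with such a copy, in replicate 1 (blue) and replicate 2 (orange). Atp5l and Ndufb4 lie above 80% in both libraries and the other 11 members below 20%.

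Genes that serve the same complexes but lie outside the rule mostly had lower medians, apart from those encoded in mitochondrial DNA. The 12 mitochondrially encoded subunits with counts were led in TPM by mt-Atp8 at 3032 and 3254 and mt-Co1 at 1933 and 3698. By counts mt-Co1 (225855 and 624256) stood far above mt-Atp8 (9858 and 7340), so the TPM rank of mt-Atp8 depended on division by length. The 13 together summed to 2.68 times and 2.47 times the TPM of all nuclear members. They held 329714 and 798092 counts, against 143061 and 270054 for the nuclear members. The lowest were mt-Atp6 at 4.86 and 14.9 TPM and mt-Nd4l with no count. Both of these overlap a neighbour, mt-Atp8 and mt-Nd4, so the split of reads within each pair is uncertain. Of the 13, mt-Nd6 (14.1 and 39.4 TPM) was called higher in replicate 2, and the median log2 difference over the 12 was 0.51 against 0.29 for protein-coding genes.

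Electron carriers and shared subunits were at moderate levels. Cycs, the gene of cytochrome c, stood at 11.7 and 24.4 TPM and Cyc1, the heme subunit of complex III that the rule misses, at 6.29 and 14.4, both called higher in replicate 2. Ndufab1, the acyl carrier protein in complex I, stood at 17.8 and 15.3 TPM and was not called. Assembly factors of complex I had medians of 3.59 and 4.53 TPM, with 14 of 15 at 1 TPM in both libraries, none called apart in either direction, and a median log2 difference of 0.36. By mean, Ndufaf2 (8.08 and 9.49 TPM) and Timmdc1 (5.78 and 7.24) were highest, and Ndufaf6 (1.38 and 2.17) and Nubpl (0.870 and 1.30) lowest. Of 20 assembly factors of complex IV 19 were detected, led by the copper chaperone Cox17 at 31.0 and 60.1 TPM and Cox20 at 24.8 and 40.6. The lowest by mean were Coa4 at 1.57 and 1.95, within the range of several others, and Pet117 with no count. In this list 2 were called, both higher in replicate 2, Cox11 with a log2 difference of 1.16 in TPM and 0.69 in CPM and Cox10 with 1.24 and 0.04. The list's median log2 difference was 0.49 in TPM and 0.04 in CPM. The natural inhibitor of ATP synthase, Atpif1, stood at 152 and 249 TPM, above every ATP synthase subunit except Atp5b in both libraries, while the assembly factors Atpaf2 (6.75 and 18.5, called higher in replicate 2), Tmem70 (5.75 and 11.2) and Atpaf1 (2.22 and 3.42) were lower, with a median log2 difference of 0.84 over the 4. For complex II, Sdhaf2 (5.43 and 6.52 TPM) and Sdhaf4 (2.31 and 5.14) were highest and Sdhaf1 (1.35 and 2.44) and Sdhaf3 (0.590 and 0.720) lowest. For complex III, Uqcc3 (18.7 and 23.6 TPM) and Uqcc2 (15.8 and 23.1) were highest and Bcs1l (2.42 and 5.21) and Lyrm7 (0.770 and 0.680) lowest by mean. In these 2 lists Sdhaf4 and Bcs1l were called higher in replicate 2, of 3 and 5 genes with a mean of at least 1 TPM, with median log2 differences of 0.81 and 0.34. Of 77 mitochondrial ribosomal proteins 7 were called higher in replicate 2 and 1 in replicate 1, with a median of 0.38.

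Regulators of mitochondrial biogenesis had medians of 4.84 and 5.24 TPM, with 11 of 13 detected. Tfam, which packages mitochondrial DNA and activates its transcription, stood at 23.6 and 36.0 TPM and Yy1 at 16.5 and 23.1. The coactivators Ppargc1a at 1.48 and 0.900 and Ppargc1b at 0.400 and 0.860 were lowest, and neither reached 1 TPM in both libraries. Nrf1 and Gabpa, whose binding letters were searched above, stood at 12.3 and 17.0 and at 13.2 and 17.9 TPM. Tfb2m was called higher in replicate 2 (4.84 and 11.9 TPM), none of the list was called higher in replicate 1, and the median log2 difference was 0.44. All these genes carry the same library-wide shift of 0.29 in TPM, and these calls stand beside the background of 6.54%. In CPM the log2 differences of the called genes were smaller, at 0.77 for Cycs, 0.90 for Cyc1, 0.77 for Sdhaf4, 0.70 for Bcs1l, 0.78 for Atpaf2 and 0.76 for Tfb2m, all under 2-fold, and 1.02 for mt-Nd6.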

How the data were processed

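Total RNA of 2 HSC libraries had been quantified per gene and per transcript on mm10 with GENCODE M4, per the text deposited beside the tables. For the aligner and counter, the sources used here give no name. The authors' tables hold, per the file headers, expected counts (estimates, often with decimals), TPM, FPKM, posterior means of each, interval bounds and posterior SDs (treated as a score on the scale of their value), and IsoPct, a transcript's percent of its gene. TPM summed to 1000000 in each library as deposited. The tables were used as deposited. Dividing by the effective length of short transcripts raises TPM, so CPM values stand beside them.

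Identifiers without version were matched to GENCODE M21, and 0.253% and 0.231% of counts lay on genes without a match. The second M21 gene named Atp5o was not used, so 84 of 85 genes by the rule were analysed. Complex levels were medians of log2 (TPM + 0.1) over members with at least 10 counts in both libraries, minus the median of all such members. A pair of forms counted as ordered if its direction was shared by the 2 libraries and its intervals did not overlap in either. Floors were 3 counts per library and cover counting error only. The deposited intervals are given within each library, so neither floors nor intervals cover the spread between libraries. Scaling factors came from edgeR 4.0.16 (TMM) and DESeq2 1.42.0 on rounded counts, with no differential test. Pseudogene copies were found with BLAST 2.17.0 among M21 pseudogene transcripts on the same strand. Python 3.11.15 did the rest. The calling rule was run on simulated counts with counting error only, which checks the code and not its error rate on these libraries.

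1 member was counted but not reported here by name. With full values the text otherwise names the 3 highest and 2 lowest members of each complex, all pairs, all members called apart, the 3 largest differences in each direction, and of other lists the 2 highest and 2 lowest with Cycs, Cyc1 and Ndufab1. Other genes named, among them Nrf1, Gabpa and the called list genes, were chosen after their values were seen. The members, lists and alternatives were chosen with earlier results of these data known. Levels of protein-coding transcripts only and levels with pseudogene copies added were chosen after seeing these files.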

Additional observations from a re-analysis of the deposited data

Results flagged for a closer look

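Signal outside the main measurement appeared on 2 processed pseudogenes that held more expected counts than the subunit gene they copy, in both libraries. Ndufb4c had 743 counts in replicate 1 and 1691 in replicate 2, against 139 and 183 for Ndufb4. Gm10221 had 837 and 1477, against 43.9 and 3.05 for Atp5l. The study had no control samples, and these counts lie above the 3 that a count of 0 allows. Both pseudogenes are identical to the coding sequence over their whole length, and whether the transcripts came from the pseudogene or the subunit gene was not tested.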

How the results depend on the processing

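No paired analysis was possible because there was 1 group of 2 libraries and no test. The number of detected members was between 68 and 77 under the alternatives tried, and the median member difference relative to protein-coding genes lay between -0.12 and -0.02. The 12 pairs of forms were ordered under all 4 of their alternatives. Leaving out a library could not change this, since the main rule asks for the order in each, and FPKM bounds rescale the same values. The share of protein-coding TPM was 0.636% by counts. Without division by length the levels relative to all members were 0.88 for complex II (turned from -0.30), 0.63 for complex III, 0.55 for complex IV and 0.35 for ATP synthase, so complex III passed complex IV and ATP synthase, and core minus supernumerary was 1.55. With no count minimum they were -0.22 for complex I, -0.03 for complex II, 0.38 for complex III and -0.63 for complex IV, whose silent tissue forms then count. On protein-coding transcripts only they were -0.32 for complex I, -0.10 for complex II and 1.30 for complex IV, and core minus supernumerary turned to -0.29. For complex IV, whose SD is near 0, posterior means gave 1.14, a pseudocount of 1 gave 1.10, Ndufa4 moved to complex IV gave 1.15 and added copies gave 1.13. ATP synthase lay at 0.81 with added copies and at 1.11 without Atp5s. From 1 library alone the share ranged from 1.54% to 1.75%, and the levels from -0.51 to -0.40 for complex I, -0.40 to -0.20 for complex II, 0.08 to 0.15 for complex III, 0.82 to 0.86 for ATP synthase and 0.18 to 0.64 for core minus supernumerary. Each percentage that follows is the share of protein-coding genes called, not of members. Of 76 members, those called higher in replicate 2 numbered 20 at a 1.5-fold limit (23.7%) and 4 with TPM rescaled over protein-coding genes (3.19%). With TMM or DESeq2 factors they numbered 1 (2.04%), against 6 (6.54%) in the main setting. Those higher in replicate 1 numbered 9 (5.43%), 7 (4.52%) and 9 (3.13% with TMM, 3.12% with DESeq2) under the same settings. They numbered 1 with a pseudocount of 1 (0.980%) and, over all 84 members, 4 with no minimum (2.89%), against 2 (2.07%). The cause of these moves was not tested. With 3 counts as the floor and 2 libraries, depth limits mainly the silent forms, and the spread between animals cannot be estimated.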
